A study of Mus musculus with 7 samples.

Results

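The genes described here are 10 genes known from fat cells and from lipid droplets, taken from the data by their symbols: *Adipoq*, *Plin1*, *Plin2*, *Fabp4*, *Cfd*, *Car3*, *Lpl*, *Scd1*, *Cidec* and *Pparg*. They were followed in bulk RNA sequencing of the tibialis anterior (TA), a muscle at the front of the shin made up mostly of fast fibres. Of the 10 genes, 9 were among the 12239 genes analysed, and *Cidec*, which encodes a protein that fuses lipid droplets, was not analysed here. The muscles came from male mice on the FVBN background aged 5 to 6 months, with 4 wild-type (WT) libraries and 3 libraries from mice without *Mybpc2* (C2-/-), the gene for the fast skeletal form of myosin-binding protein C. In C2-/- mice a Neo cassette flanked by LoxP sites stands in place of a block of *Mybpc2* exons that starts after the first exon, and WT mice carried no such allele. The comparison asks how the transcripts of fast muscle change in the absence of this protein, and here how its fat-related transcripts change.

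Adipocytes store triacylglycerol in a lipid droplet coated by perilipins, release fatty acids from it by lipolysis, and secrete adiponectin and adipsin. PPARγ, the product of *Pparg*, is the nuclear receptor that directs adipocyte formation. Skeletal muscle holds adipocytes between its fibres and on its surface, so a dissected muscle carries variable amounts of fat. Muscle fibres also keep droplets of their own and make several of the same proteins, among them perilipin 2, lipoprotein lipase and carbonic anhydrase 3.

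The 9 genes fell apart into those that rose in C2-/- and those that did not pass the test. *Fabp4*, *Pparg*, *Lpl* and *Scd1* were higher in C2-/- by 2.77-fold, 3.08-fold, 2.51-fold and 2.41-fold, and in each of them every C2-/- library lay above every WT library. Of these 4, *Pparg* alone was still called after correction for GC content, and none with a depth term in the model. With the depth term their log2 changes were 0.61, 1.43, 1.0 and 0.61. All 4 were still called with reads thinned to the total of the smallest library. The defining adipocyte markers *Adipoq* and *Cfd* did not pass the test and rested on 1 to 57 reads per library. *Plin1*, the perilipin typical of adipocytes, lay above every WT library in all 3 C2-/- libraries and had an adjusted p of 0.0614 in limma's test. No member fell past the threshold. These values are in log2 CPM (the log2 of counts per 1e6 counted reads, after TMM scaling of the libraries), and a gene was called with an adjusted p under 0.05 and a change of more than 1.5-fold.

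Of the 9 genes, 4 were called higher and 0 lower by limma, against 20.2% and 25% of the 12239 genes. At an unadjusted p under 0.05, 5 were higher and 0 lower, and voom weights on the reads gave 5 calls higher and 0 lower. All C2-/- libraries lay above all WT libraries in 5 of the 9 and below them in 0, against 22.6% and 26.7% of all genes. The log2 change was positive in 8 of the 9 genes and in 46.2% of all genes. The median log2 change was 1.27 over the 9 genes and -0.14 over all genes, and centring the libraries on their medians or quantile normalization put the median of all genes at 0.02 or 0.05 and that of the members at 1.43 or 1.23. The median of the members was 0.91 after GC correction, with 0 of the 9 changes negative, and 0.61 with a depth term, with 4 of the 9 negative. The p-values measure the spread between the libraries as labelled.

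Libraries differed in depth in a way that followed genotype. WT replicates 1 to 3 held 14929214 to 15464499 reads in the table, whereas WT replicate 4 and the C2-/- libraries held 2613277 to 4917936. *Mybpc2* itself was counted 25665 to 110159 times per WT library and 3 to 8 times per C2-/- library, which fits the labels. Fewer genes were also called once the GC trend of each library was removed, and the members ranged from 40.3% GC for *Fabp4* to 58.4% for *Cfd*. Each change below was therefore also computed after this GC correction, and with a depth term that sets C2-/- against WT replicate 4. Genotype and depth cannot be fully told apart with these 7 libraries, and the depth comparison rests on a single WT library. The depth term drops WT replicates 1 to 3 from the contrast and does not scale with read number. With reads thinned to the total of the smallest library, 4 members were called higher and 0 lower, against 2305 and 2837 of all genes. *Fabp4*, *Lpl*, *Scd1* and *Pparg* then changed by 1.49, 1.31, 1.23 and 1.71 on the log2 scale, and *Adipoq* by 0.26.

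The upstream sequence of 3 members is shown here, because *Adipoq* and *Cfd* were lowest together in the same WT library (the *Plin1* window is left out because it overlaps annotated first exons) and *Pparg* was the called member with a RefSeq start in the reference table. Each is the run of 250 bases that ends just before a RefSeq start (GRCm38.p6), written 5′ to 3′ on the strand of the gene, and all 3 genes are on the plus strand. The *Adipoq* window is chr16:23146286-23146535, directly upstream of the annotated gene. The *Cfd* window is chr10:79890603-79890852, directly upstream of its gene. The *Pparg* window is chr6:115421816-115422065, upstream of the most downstream of 3 listed starts and within an intron of the longer transcripts. Capitals mark CCAAT or its complement ATTGG.
Adipoq: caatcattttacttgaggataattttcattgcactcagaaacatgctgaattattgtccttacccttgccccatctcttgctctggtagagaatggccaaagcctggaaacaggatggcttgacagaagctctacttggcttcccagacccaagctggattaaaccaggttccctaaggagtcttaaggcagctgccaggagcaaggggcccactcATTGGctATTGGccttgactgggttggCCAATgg
Cfd: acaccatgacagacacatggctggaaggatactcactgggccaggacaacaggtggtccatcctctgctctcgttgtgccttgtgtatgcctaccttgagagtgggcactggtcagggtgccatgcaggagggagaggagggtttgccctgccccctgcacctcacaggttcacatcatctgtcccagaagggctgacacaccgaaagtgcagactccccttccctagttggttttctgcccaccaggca
Pparg: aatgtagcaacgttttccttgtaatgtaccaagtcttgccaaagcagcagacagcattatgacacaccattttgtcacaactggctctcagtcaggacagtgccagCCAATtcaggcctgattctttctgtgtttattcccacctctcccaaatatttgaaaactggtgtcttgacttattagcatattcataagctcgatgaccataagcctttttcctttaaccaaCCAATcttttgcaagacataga

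The *Adipoq* window held CCAAT 3 times, beginning 34, 27 and 7 bases before the start, with the first pair on the opposite strand and the last on the strand of the gene. The *Pparg* window held it 2 times, 144 and 22 bases before the start, and the *Cfd* window held none. At least 1 copy on either strand was present in 33.8% of 32851 RefSeq windows of the same length. AGGTCA, the core letters of a nuclear receptor element, and TATAAA were searched on both strands too, and none of the 3 printed windows held either, against 14% and 12.4% of all windows. The other 2 *Pparg* windows, not printed, each held AGGTCA, beginning 28 and 9 bases before their starts. The latter window held TATAAA as well, 29 bases before its start. Both windows reach past the annotated gene start at chr6:115360951, and these matches lie within the annotated gene. Such matches are letters in a window and were not tied to any measurement here. Reads counted per gene do not separate the *Pparg* starts.

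*Adipoq* encodes adiponectin, a hormone that adipocytes alone make in quantity, and lies at chr16:23146536-23158028 on the plus strand (GRCm38). It had 11, 25, 1 and 13 reads in WT replicates 1 to 4 and 1, 8 and 14 reads in C2-/- replicates 1 to 3. As log2 CPM these were -0.42, 0.77, -3.36 and 1.62 in WT and -0.95, 1.67 and 1.59 in C2-/-. The lowest library of each group held a single read, and the groups overlapped over most of their range. That read stood for 0.0651 CPM in WT replicate 3 (exact 95% Poisson interval 0.00165 to 0.363) and for 0.344 CPM in C2-/- replicate 1 (0.00871 to 1.92), intervals that cover counting error only. On the log2 scale the change was 1.11 (SE 1.18, 95% interval -1.51 to 3.73, adjusted p = 0.452 in limma's test), an interval that spans both a fall and a rise, so no change was detectable at this depth. Without WT replicate 3 the change was 0.11 (adjusted p = 0.938), and it ranged up to 1.97 without C2-/- replicate 1. With the depth term the change turned to -0.85 (adjusted p = 0.75).

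*Cfd* encodes adipsin (complement factor D), another secreted product of adipocytes, at chr10:79890853-79892655 on the plus strand. It had 40, 57, 3 and 21 reads in WT and 4, 1 and 24 reads in C2-/-. The values were 1.40, 1.94, -2.13 and 2.29 log2 CPM in WT and 0.63, -0.83 and 2.34 in C2-/-. Low and high libraries occurred in both groups, with WT replicate 3 lowest of all and C2-/- replicate 3 and WT replicate 4 highest. Its change on the log2 scale was -0.16 (SE 1.12, 95% interval -2.64 to 2.32, adjusted p = 0.915 in limma's test). Its direction depended on the processing and turned positive, for example, with quantile normalization (0.57) and after GC correction (1.34), neither past the threshold. The change was also positive without WT replicate 1, 2 or 4 (0.01, 0.19 and 0.31) and without C2-/- replicate 2 (0.61).

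*Plin1* encodes perilipin 1, which coats the large droplet of adipocytes and gates lipolysis, and lies at chr7:79720218-79732903 on the minus strand. It had 9, 15, 1 and 4 reads in WT and 4, 22 and 8 reads in C2-/-. As log2 CPM the WT libraries stood at -0.69, 0.05, -3.36 and 0.03 and the C2-/- libraries at 0.63, 3.07 and 0.81. The groups did not overlap, but C2-/- replicate 1 and WT replicate 4 both rested on 4 reads, and their counting intervals (0.375 to 3.52 and 0.248 to 2.33 CPM) overlapped widely. The log2 change was 2.50 (SE 0.99, adjusted p = 0.0614 in limma's test), short of the threshold. It was past the threshold after GC correction (3.81, adjusted p = 0.0316), with quantile normalization (3.11, 0.0126), with median centring (2.66, 0.0499) and with voom weights on the reads (2.54, 0.0355). With the depth term it was 1.47 (0.521). Without WT replicate 3 or without C2-/- replicate 2 it was 1.71 in each case (0.135 and 0.204), and leaving out any 1 library gave no call. Nor was it called with library quality weights (2.33, 0.189), thinned reads (2.44, 0.0772), 2 added reads (1.95, 0.059) or no trend (2.50, 0.0731).

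*Plin2* encodes perilipin 2, the droplet coat of most cells that are not adipocytes, muscle fibres included, and lies at chr4:86648386-86670060 on the minus strand. Its values were 4.62, 4.73, 4.97 and 5.83 log2 CPM in WT and 5.43, 5.38 and 5.26 in C2-/-. The C2-/- libraries lay close together, above WT replicates 1 to 3 and below WT replicate 4. On the log2 scale the change was 0.32 (SE 0.29, 95% interval -0.32 to 0.96, adjusted p = 0.375 in limma's test) and turned to -0.47 with the depth term, also short of the threshold. After GC correction it was 0.84 (0.0832), and without WT replicate 4 it was 0.58 (0.0189), just under the 1.5-fold limit.

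*Pparg* lies at chr6:115360951-115490399 on the plus strand and overlaps the antisense gene *Gm44079*. Whether counting used strand is not given in the sources used here, so reads of the 2 genes may not have been told apart. *Pparg* had 68, 42, 62 and 19 reads in WT and 30, 71 and 29 reads in C2-/-, at depths that differ several-fold. Per 1e6 reads and on the log2 scale the WT libraries stood at 2.16, 1.51, 2.02 and 2.15 and the C2-/- libraries at 3.39, 4.74 and 2.61. The WT libraries agreed closely, all C2-/- libraries lay above them, and C2-/- replicate 2 stood far above the other C2-/- libraries. Its change on the log2 scale was 1.62 (SE 0.50, 95% interval 0.50 to 2.74, adjusted p = 0.0244 in limma's test). The GC-corrected change was of like size (1.83, adjusted p = 0.0321), and the change against WT replicate 4 was 1.43 (0.228). The call was lost without WT replicate 2 (1.47, 0.067), without WT replicate 3 (1.64, 0.0514) and without C2-/- replicate 2 (1.04, 0.055).

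**Figure D1:**
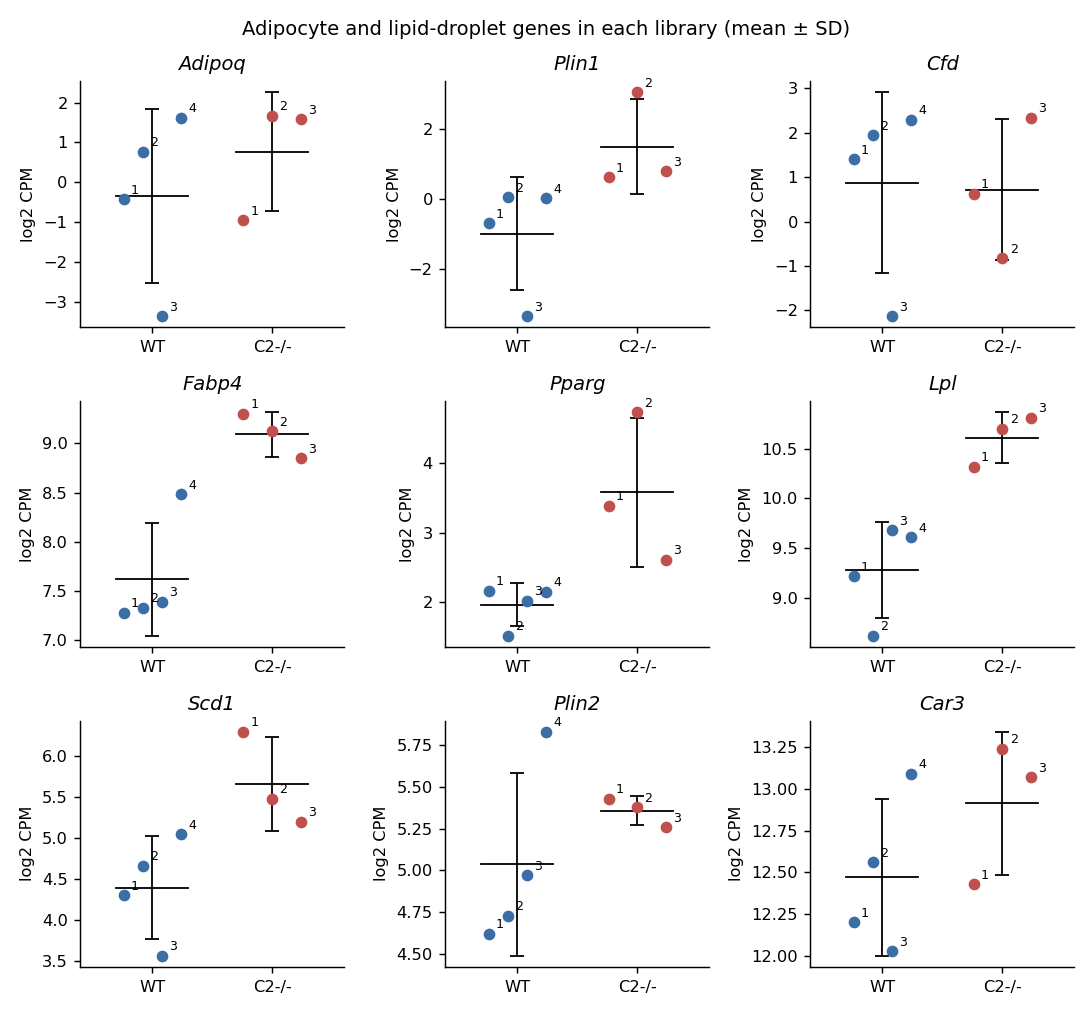
Expression of the 9 genes in each library. The y axis is log2 CPM, with its own range in each panel. Points are libraries numbered by replicate (blue for WT, red for C2-/-), and lines give the mean ± SD of 4 WT or 3 C2-/- libraries. WT replicate 3 is the lowest point for *Adipoq*, *Plin1* and *Cfd*, whereas for *Fabp4*, *Pparg*, *Lpl* and *Scd1* the C2-/- points all lie above the WT points.

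*Lpl* encodes lipoprotein lipase, which frees fatty acids from circulating lipoproteins for uptake by muscle and fat, and lies at chr8:68880491-68907448 on the plus strand. It was abundant, with values of 9.22, 8.62, 9.68 and 9.61 log2 CPM in WT and 10.32, 10.70 and 10.81 in C2-/-. All C2-/- libraries lay above all WT libraries, and the WT libraries spread more than the C2-/- libraries. Its change came to 1.33 on the log2 scale (SE 0.26, 95% interval 0.75 to 1.91, adjusted p = 0.00298 in limma's test). It was past the threshold without any 1 of the 7 libraries. After GC correction it was 0.62 (adjusted p = 0.0956), and against WT replicate 4 it was 1.0 (0.0965).

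*Fabp4* encodes the fatty acid-binding protein of adipocytes, which capillary endothelium and macrophages make as well, and lies at chr3:10204088-10208576 on the minus strand. Its values were 7.28, 7.33, 7.39 and 8.48 log2 CPM in WT and 9.30, 9.12 and 8.85 in C2-/-. WT replicate 4 stood well above the other WT libraries and below every C2-/- library. The log2 change was 1.47 (SE 0.28, 95% interval 0.84 to 2.09, adjusted p = 0.00275 in limma's test) and was past the threshold without any 1 of the libraries. After GC correction it was 0.41 (adjusted p = 0.221), and against WT replicate 4 it was 0.61 (0.0629), so the size of the rise depended on both.

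*Scd1* encodes a stearoyl-CoA desaturase, which makes monounsaturated fatty acids for storage, and lies at chr19:44394455-44407879 on the minus strand. Its values were 4.30, 4.66, 3.56 and 5.05 log2 CPM in WT and 6.30, 5.48 and 5.20 in C2-/-. All C2-/- libraries lay above all WT libraries, although C2-/- replicate 3 stood only just above WT replicate 4. On the log2 scale the change was 1.27 (SE 0.37, 95% interval 0.44 to 2.10, adjusted p = 0.0192 in limma's test). The call was lost without C2-/- replicate 1 (0.95, adjusted p = 0.0803), after GC correction (1.01, 0.0731) and with the depth term (0.61, 0.414).

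*Car3* encodes carbonic anhydrase 3, a cytosolic enzyme abundant in both adipocytes and muscle fibres, and lies at chr3:14863512-14872523 on the plus strand. Its values were 12.20, 12.56, 12.03 and 13.09 log2 CPM in WT and 12.43, 13.24 and 13.07 in C2-/-. The groups overlapped, with WT replicate 4 among the high libraries and C2-/- replicate 1 among the low ones. Its change on the log2 scale was 0.44 (SE 0.31, 95% interval -0.25 to 1.13, adjusted p = 0.26 in limma's test). It was past the threshold with quantile normalization (0.89, 0.0216) and turned to -0.18 with the depth term.

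**Figure D2:**
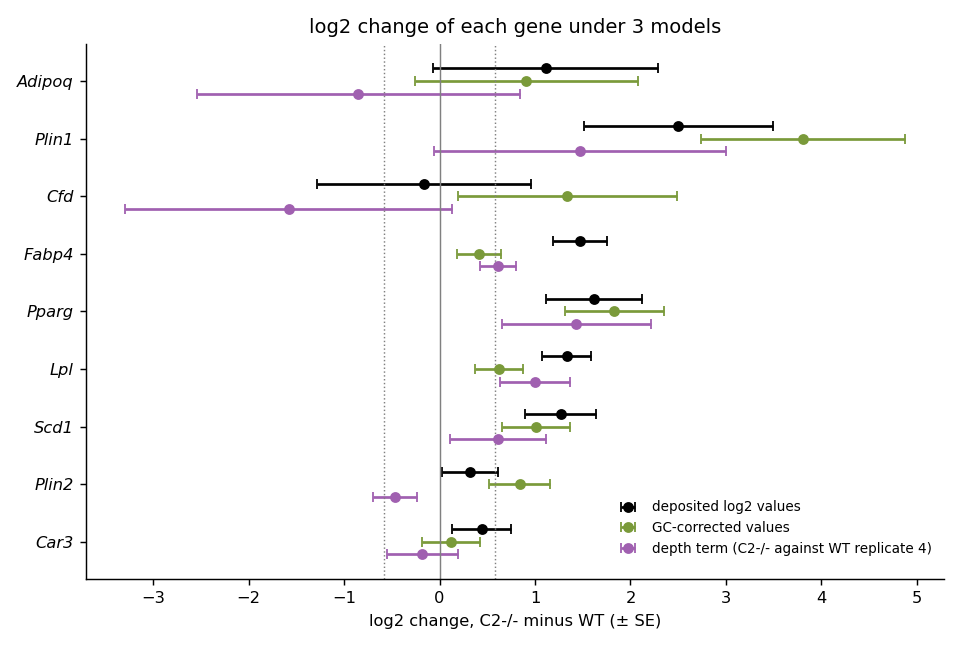
The log2 change of each gene, C2-/- minus WT, under 3 models. Points are estimates and bars ± SE (black for deposited values, green after GC correction, purple with the depth term), and dotted lines mark a 1.5-fold change. *Plin1* and *Pparg* have positive estimates under all 3, with wide bars, and *Plin1* falls from 2.50 to 1.47 with the depth term (SE 1.53). *Fabp4* shrinks from 1.47 to 0.41 and 0.61.

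With the GC correction, 2 of the 9 genes (*Plin1* and *Pparg*) were called higher and 0 lower, against 12.3% and 8.32% of the genes with a known GC content. With the depth term, 0 of the 9 were called in either direction by limma (2 were higher and 0 lower at an unadjusted p under 0.05), against 8.73% higher and 8.25% lower over all genes. The C2-/- mean lay above WT replicate 4 in 5 of the 9 genes.

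Transcript levels per length were compared within each group as RPKM (reads per kilobase of transcript per 1e6 reads), given as mean ± SD. In WT muscle *Car3* was highest, at 3520 ± 1210 RPKM (n = 4), followed by *Fabp4* at 235 ± 109 and *Lpl* at 157 ± 47.5, whose ranges overlapped. *Plin2* came next at 18.5 ± 7.92 RPKM, apart from its neighbours. *Scd1*, *Cfd*, *Pparg*, *Adipoq* and *Plin1* followed at 4.64, 3.09, 1.84, 1.05 and 0.228 RPKM, and each overlapped the next in range. In C2-/- muscle (n = 3) the order was alike, with *Car3* at 4720 ± 1280, *Fabp4* at 613 ± 94.5, *Lpl* at 384 ± 65.5 and *Plin2* at 21.7 ± 1.28 RPKM, each apart from the next. There *Pparg* (6.73 RPKM) stood between *Scd1* (11.0 RPKM) and *Cfd* (2.43 RPKM), and *Adipoq* (1.61 RPKM) and *Plin1* (1.33 RPKM) came last, all with overlapping neighbours. *Car3*, *Lpl*, *Fabp4* and *Plin2*, which cells of muscle other than adipocytes also make, were thus higher per length in both groups than the defining adipocyte transcripts *Adipoq*, *Plin1* and *Cfd*.

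The members were also compared between libraries of the same genotype, to see whether the adipocyte markers varied together from muscle to muscle. Within WT, replicate 3 was lowest in 5 of the 9 genes (*Adipoq*, *Plin1*, *Cfd*, *Car3* and *Scd1*), whereas 19.6% of all genes were lowest there. Its log2 value lay below the mean of the other WT libraries by 4.01 for *Adipoq*, 4.01 for *Cfd* and 3.15 for *Plin1*, the 3rd, 4th and 6th lowest differences among the 12239 genes. *Scd1* was 1.10 lower there (187th), *Car3* 0.59 lower (814th), and *Lpl* 0.53 higher. The counting interval of *Cfd* in this library (0.0403 to 0.571 CPM) lay apart from those of the other WT libraries, whereas those of *Adipoq* and *Plin1* met at least that of WT replicate 1. WT replicate 3 was singled out after its values were seen, and it was as deep as WT replicates 1 and 2. WT replicate 4 was highest of the WT libraries in 6 of the 9 genes, against 34.0% of all genes, and lowest in 0, against 51.6%.

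In C2-/- muscle the markers did not keep 1 order. Replicate 2 was highest in *Adipoq*, *Plin1*, *Car3* and *Pparg* but lowest in *Cfd*, which had 1 read there. Replicate 1 was lowest in *Adipoq*, *Plin1*, *Car3* and *Lpl* and highest in *Fabp4*, *Scd1* and *Plin2*. The counting intervals of *Plin1* in replicates 2 and 3 (5.16 to 12.5 and 0.715 to 3.26 CPM) did not overlap, nor did those of *Cfd* (0.00948 to 2.09 and 3.18 to 7.39 CPM), whereas the interval of *Adipoq* in replicate 1 overlapped both others.

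**Figure D3:**
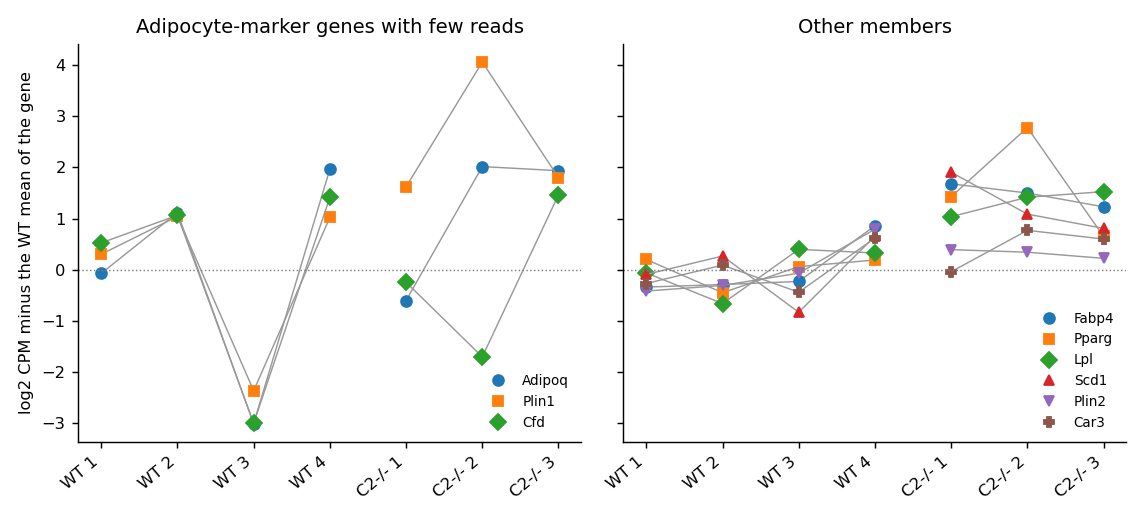
The 9 genes across the 7 libraries. The y axis is the log2 CPM minus the mean of the gene over the WT libraries. Each symbol is a gene, and lines only join the libraries of a group, which have no order. *Adipoq*, *Plin1* and *Cfd* drop together in WT replicate 3, but part in C2-/- replicate 2, where *Plin1* is highest and *Cfd* lowest.

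Co-variation was described by Pearson's r of the deviations from the group means over the 7 libraries, with no test, and all genes of a library share its depth and scaling. With *Adipoq*, r was 0.90 for *Car3*, 0.86 for *Plin1* and 0.72 for *Cfd*. It was 0.42 for *Scd1*, 0.34 for *Fabp4*, 0.31 for *Plin2*, 0.03 for *Pparg* and -0.14 for *Lpl*. Without WT replicate 3, over 6 libraries, r stood at 0.96 for *Car3*, 0.61 for *Plin1* and 0.17 for *Cfd*, so the tie of *Cfd* to *Adipoq* rested on that library. Among the called genes, the same omission moved *Lpl* to 0.52 and *Scd1* to -0.35, and *Fabp4* and *Pparg* stood at 0.24 and 0.12. *Plin2* and *Fabp4* had an r of 0.97 with each other. Among 10643 other genes with a mean of at least 1 log2 CPM, those most like *Adipoq* included *Mkl2* (0.964), *Maoa* (0.962), *Ddit4l* (0.959) and *4833420G17Rik* (0.955), and 1.93% of those genes reached an r of 0.8.

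Further markers of adipocytes were mixed and depended on the model. Of 12 listed, 6 were analysed (*Lep*, *Retn*, *Adrb3*, *Cidea*, *Acvr1c* and *Pck1* were not analysed here), and 0 were higher (1 at an unadjusted p under 0.05) and 3 lower, against 20.2% and 25% of all genes, with a median log2 change of -0.93. The 3 lower genes were *Plin4* (a perilipin, -1.39, SE 0.27), *Nrg4* (a secreted growth factor, -2.0, SE 0.67) and *Thrsp* (a regulator of lipogenesis, -1.73, SE 0.44), with adjusted p of 0.00303, 0.0334 and 0.0104 in limma's test. They are named here after their values were seen. *Plin4* is made by muscle fibres too. After GC correction, with 12.3% of all genes higher and 8.32% lower, 1 of the 6 was lower, *Nrg4* (-2.23, adjusted p = 0.0381), and *Plin4* (-0.23, 0.68) and *Thrsp* (-0.88, 0.156) were no longer called. *Slc7a10*, an amino acid transporter of adipocytes, was higher after that correction (2.60, 0.0111), against 1.27 (0.0778) in the deposited values. With the depth term *Plin4* was lower (-2.04, 0.00916), and *Nrg4* (-1.65, 0.3) and *Thrsp* (-2.07, 0.0615) were not called. The summed level of the 6 was 163 to 295 CPM in WT and 86.0 to 106 CPM in C2-/-, and *Plin4* made up most of it in WT. Of 4 brown adipocyte markers only *Dio2* was analysed, with a log2 change of 0.91 (adjusted p = 0.162). The adipocyte label of the members thus rests on few reads of the defining markers. Of the 4 called members, *Fabp4*, *Lpl* and *Scd1* are also made by other cells of muscle. *Pparg*, the other called member, had an r of 0.03 with *Adipoq*, 0.42 with *Plin1* and -0.54 with *Cfd*. In bulk muscle, fewer or more cells of a type and less or more RNA per cell cannot be told apart.

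Markers of the other cells that a muscle holds were read beside these values. The members that mark adipocytes summed to 164 to 369 CPM in WT and 477 to 643 CPM in C2-/-, of which *Fabp4* made up most. The 5 stromal progenitor markers, from which adipocytes can arise, summed to 367 to 459 CPM in WT and 1210 to 1270 CPM in C2-/-, most of it *Dcn*. *Cd34* was not called (-0.14), and of the 5 markers 4 were higher and 0 lower. Of these 4, *Dcn* (decorin) alone was called after GC correction (1.16, adjusted p = 0.000995) and with the depth term (1.62, 0.00503), and *Pdgfra*, *Ly6a* and *Lum* were past the threshold in neither. Their log2 changes of 0.82, 0.62 and 1.42 in the deposited values were 0.70, 0.49 and 0.54 after GC correction and 0.77, 0.87 and 1.0 with the depth term. The shares of all genes called higher were 20.2% in the deposited values, 12.3% after GC correction and 8.73% with the depth term, and those called lower were 25%, 8.32% and 8.25%. Of 5 endothelial markers 1 was higher and 0 lower, with sums of 299 to 425 CPM in WT and 276 to 361 CPM in C2-/-. Macrophage markers (5 genes) were higher in 0 and lower in 1 (*C1qa*), at 17.1 to 32.0 CPM in WT and 15.9 to 25.1 CPM in C2-/-. *C1qa* had 7, 0 and 0 reads in C2-/-, so the size of its change depends on the 0.5 reads added before the log. *C1qb*, *Csf1r*, *Cd68* and *Adgre1* changed by -0.20, 0.06, 0.20 and 0.18. Fast-fibre genes were lower in 5 of 7 and summed to 182000 to 211000 CPM in WT and 89700 to 112000 CPM in C2-/-, and slow-fibre genes were called in 0 of 5. After GC correction 2 of the 7 fast-fibre genes (*Ckm* and *Pvalb*) were lower and 1 slow-fibre gene (*Atp2a2*, 0.66, adjusted p = 0.0399) was higher, and with the depth term 4 fast-fibre genes were lower. Schwann cell markers were lower in 1 of 4, and the single red blood cell marker analysed was lower. In the endothelial, macrophage, Schwann cell and red blood cell lists 0 genes were called after GC correction or with the depth term. The change of the endothelial *Emcn* shrank from 1.14 to 0.22 and 0.06 in these models, whereas that of the macrophage gene *C1qa* went from -4.11 to -2.48 and -3.59, that of the Schwann cell gene *Mbp* from -1.22 to -0.87 and -1.06, and that of the red blood cell gene *Alas2* from -1.52 to -0.79 and -1.37. The part of these shifts in the members' changes was not tested. For every direction without a call in these lists, the count at an unadjusted p under 0.05 was 0 as well in the deposited values, except 1 endothelial marker that was lower, and with voom weights 1 slow-fibre gene was lower.

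In the deposited values the other genes of lipid handling were called lower more often than higher, and most of these calls ended after GC correction. Of 59 listed genes in 7 roles, 53 were analysed, and 4 were higher, 26 lower and 23 not past the threshold, with a median log2 change of -0.85. The 4 and 26 genes were 7.55% and 49.1% of the 53, against 20.2% and 25% of all genes. The genes that were lower were GC-rich, with a median of 56.1% GC against 50.2% for all genes, and the higher ones had a median of 43.2%. After GC correction 6 were lower and 3 higher (11.3% and 5.66% of the 53, against 8.32% and 12.3% of all genes), the median change was -0.13, and 29 of the 53 changes were negative. Of those 6, 5 had been lower in the deposited values. Of the 3, 0 had been higher and 1 (*Pnpla2*) had been lower, so none of the 4 higher calls held. With the depth term 10 were lower and 1 higher, against 8.25% and 8.73% of all genes, and 9 of the 10 had been lower before. The median change with the depth term was -0.77, and 35 of the 53 changes were negative. *Acacb*, *Adipor2* and *Fitm2* were lower in all 3 models.

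Among 9 droplet proteins, 6 were lower and 0 higher (1 at an unadjusted p under 0.05). After GC correction 3 were lower (*Plin3*, *Fitm2* and *Rab18*, the last at 0.49 in the deposited values) and 0 higher. The median change went from -1.62 to -0.49. The lowest was *Fitm2*, an endoplasmic reticulum protein needed for droplet formation, with values of 6.32, 6.12, 6.27 and 5.49 log2 CPM in WT and 4.20, 3.31 and 3.65 in C2-/-. All C2-/- libraries lay below all WT libraries, and the log2 change was -2.33 (SE 0.28, adjusted p = 0.000411 in limma's test). It was -2.04 after GC correction and -1.77 with the depth term, past the threshold in both.

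Of 5 lipolysis genes, 1 was higher and 3 lower. *Abhd5*, the co-activator of adipose triglyceride lipase, had 5.94, 5.85, 6.09 and 5.41 log2 CPM in WT and 6.71, 6.92 and 6.68 in C2-/-, and its log2 change of 0.94 (adjusted p = 0.00388) was 0.50 after GC correction (0.115) and 1.35 with the depth term (0.00887). *Lipe*, hormone-sensitive lipase, had 4.63 to 4.73 in WT and 3.03 to 3.29 in C2-/-. The groups stood far apart for *Lipe*, with a log2 change of -1.55 (adjusted p = 0.000915 in limma's test), which was -0.42 after GC correction (0.232) and -1.56 with the depth term (0.0143). *Pnpla2*, the lipase that *Abhd5* activates, was lower in the deposited values (-0.72) but higher after GC correction (0.60, adjusted p = 0.013), a gene named after its values were seen.

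Of 9 genes of triacylglycerol synthesis, 6 were lower and 0 higher (7 and 0 at an unadjusted p under 0.05). After GC correction 1 (*Gpam*) was lower and 0 higher, and the median change went from -1.44 to -0.6. *Dgat2*, which completes triacylglycerol, fell furthest, from 3.16 to 4.06 log2 CPM in WT to 0.27, 2.71 and -0.95 in C2-/-. The C2-/- libraries scattered widely on 3, 17 and 2 reads, and the log2 change of -2.84 (SE 0.74, adjusted p = 0.0117) was not past the threshold after GC correction (-1.61, 0.172). Of 8 genes of fatty acid synthesis and desaturation, 1 was higher and 2 lower. *Elovl5*, an elongase, was higher by 1.03 (SE 0.23, adjusted p = 0.005) and by 0.48 after GC correction (0.143). *Acacb*, the acetyl-CoA carboxylase that restrains fatty acid oxidation in muscle, was at 7.52 to 8.23 log2 CPM in WT and 5.78 to 6.36 in C2-/-, and changed by -1.97 (SE 0.22, adjusted p = 0.000302 in limma's test). Its change was smaller after GC correction (-0.69, 0.00845) and was -1.46 with the depth term (0.00929).

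Of 9 genes of fatty acid uptake and binding, 1 was higher and 5 lower. After GC correction 0 of the 9 were called in either direction, and the median change went from -0.85 to -0.29. *Cd36*, the fatty acid translocase, was at 7.92 to 8.59 log2 CPM in WT and 8.79 to 9.59 in C2-/-, a log2 change of 0.84 (adjusted p = 0.0124) that turned to -0.41 after GC correction (0.245). *Slc27a4*, a fatty acid transporter, had 15, 0 and 13 reads in C2-/- against 47 to 225 in WT, a log2 change of -3.20 (SE 0.94, adjusted p = 0.0193) that depends on the 0.5 reads added before the log. After GC correction it was -1.90 (0.135), not past the threshold. Of 9 transcription factors of lipid genes, 3 were lower and 0 higher, also at an unadjusted p under 0.05. After GC correction 0 of the 9 were lower and 1 higher (*Mlxipl*), 2 changes were negative, and the median change turned from -0.44 to 0.45. *Srebf1*, which drives lipogenic genes, was lowest at -2.20 (SE 0.54, adjusted p = 0.00902), and -0.70 after GC correction (0.258). Of 4 adipokines and receptors, *Lepr*, the leptin receptor, was higher (1.62, SE 0.60, adjusted p = 0.0484) on 7 to 25 reads per library, but not after GC correction (0.71, 0.393). *Adipor2*, a receptor for adiponectin, was lower at 5.96 to 6.70 log2 CPM in C2-/- against 7.26 to 7.68 in WT (-1.21, SE 0.20, adjusted p = 0.00155 in limma's test). With the depth term the calls of *Dgat2*, *Elovl5*, *Cd36*, *Slc27a4*, *Srebf1* and *Lepr* were not made, with adjusted p from 0.0564 to 0.501. The depth-term changes of *Dgat2* (-2.53), *Elovl5* (0.97), *Cd36* (0.89) and *Slc27a4* (-2.94) were close in size to those in the deposited values, and those of *Srebf1* (-1.34) and *Lepr* (0.87) were smaller.

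**Figure D4:**
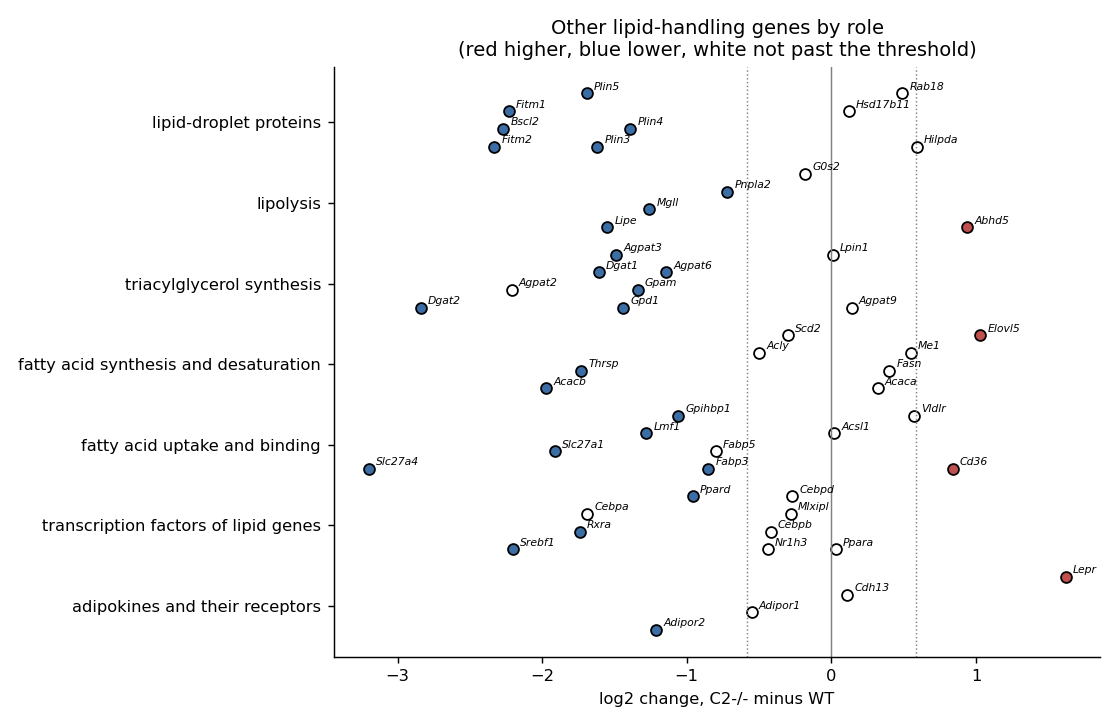
The log2 change, C2-/- minus WT, of 53 other lipid-handling genes by role. Red points are higher, blue points lower and white points not past the threshold, from the deposited values, dotted lines mark a 1.5-fold change, and height within a role only separates labels. The 26 blue points outnumber the 4 red ones (6 and 3 after GC correction), and a triacylglycerol synthesis gene (*Dgat2*) and a fatty acid transporter (*Slc27a4*) lie furthest to the left.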

How the data were processed

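RNA from TA muscle of 4 WT and 3 C2-/- mice was selected on oligo(dT) beads and sequenced as DNA nanoballs, 1 library per sample, grouped by the sample titles. The authors aligned reads to GRCm38.p6 with HISAT, counted them per gene with featureCounts (1.5.2), scaled libraries by edgeR's TMM factors and deposited log2 values for 12239 genes. A second deposited table holds the authors' own comparison (fold changes, p-values, adjusted p-values and scores) and was not used. The design text gives 4 animals per group, whereas 3 C2-/- libraries were analysed here. The study's methods give a wider age range than the sample titles, which were followed.

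Each deposited log2 value came out as a whole number of reads plus 0.5, per 1e6 reads of the effective library (100% of values, with departures of at most 2.2e-08 reads), so low values depend on how deep a library is. The level of 3 reads was 0.195 to 1.12 CPM, and such floors and Poisson intervals cover counting error only, since PCR copies are not independent molecules.

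limma (3.58.1, R 4.3.3, lmFit and eBayes with trend) was fitted to all genes and 7 libraries with genotype as the only term, two-sided, with Benjamini-Hochberg adjustment over 12239 genes. A call needed an adjusted p under 0.05 and more than 1.5-fold (0.585 on the log2 scale). The fit was tested on simulated data. Alternatives were voom weights, no trend, library quality weights, quantile normalization, median centring, 2 added reads, filters at a mean log2 value of 0 or 3, adjusted p under 0.01, no minimum fold, GC and length corrections (natural splines, 5 degrees of freedom, GC content known for 12170 genes), reads thinned to equal depth, a depth term, a replicate block, and each library left out.

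Positions, GC content and length came from the GENCODE M21 annotation of GRCm38. Upstream sequences came from a table of RefSeq starts (GRCm38.p6), in which 6 of the 10 members were matched (*Adipoq*, *Plin1*, *Plin2*, *Cfd*, *Cidec* and *Pparg*). Upstream sequences of *Fabp4*, *Car3*, *Lpl* and *Scd1* were not used here. Every member was named. Of each lipid list the highest and lowest called gene were named. Of other cell types the counts were given, with sums for the stromal, endothelial, macrophage and fast-fibre lists. The 5 genes most like *Adipoq* between libraries were chosen by rule, and 1 of them is not reported here. The members and gene lists were chosen with earlier results of these data known.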

Additional observations from a re-analysis of the deposited data

Results flagged for a closer look

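In 4 of 27 values tested, 1 of the 4 WT libraries stood apart from the other 3 by Dixon's criterion (the gap to the nearest library over the whole range), and about 1.4 such cases arise by chance. *Fabp4* stood at 8.48 log2 CPM in WT replicate 4, against 7.28 to 7.39 in the other WT libraries. The summed level of the members that mark adipocytes, most of it *Fabp4*, was 369 CPM in that library, against 164 to 172 CPM. The sum over fatty acid synthesis and desaturation genes was 554 CPM in WT replicate 4, against 664 to 666 CPM. The fast-fibre genes summed to 211000 CPM in WT replicate 2, against 182000 to 186000 CPM. WT replicate 4 was also the shallowest WT library, and the part of depth in these values was not tested.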

How the results depend on the processing

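The count of members called higher was 4 and stood at 3 to 4 without 1 library, at 2 after GC correction, 2 after GC and length correction, 0 with the depth term and 2 at an adjusted p under 0.01. It was 4 with thinned reads and 5 with voom weights or median centring. It was 6 with quantile normalization, the replicate block, or the block with GC correction. Both block models take WT replicate 4 out of the genotype contrast. Members called lower were 0 in every alternative run. Lipid-handling genes called higher were 4 (3 to 5 without 1 library), 7 with median centring, 1 with the depth term and 2 at the stricter p. Those called lower were 26 (22 to 28 without 1 library), 6 after GC correction, 5 after GC and length correction, 10 with the depth term, 7 with the replicate block and GC correction together, and 17 at the stricter p. Over all genes, 2473 were higher (1896 to 2876 without 1 library), 1492 after GC correction, 1505 after GC and length correction, 1068 with the depth term and 1456 at the stricter p. Over all genes, 3055 were lower (2193 to 3260), 1013, 1008 and 1010 under the same 3 models, 1117 with the replicate block and GC correction, and 1760 at the stricter p. The cause of these shifts was not tested.

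Directions turned for *Adipoq* (-0.85), *Plin2* (-0.47) and *Car3* (-0.18) with the depth term. *Cfd* turned positive with voom weights (0.26), library quality weights (0.36), quantile normalization (0.57), GC correction (1.34), GC and length correction (1.08), the replicate block (0.31) and the block with GC correction (1.93), and ranged from -1.16 to 0.61 without 1 library.

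Same-numbered WT and C2-/- libraries shared little (r of their deviations 0.05, -0.06 and -0.05), so the numbers were not taken as pairs. No C2-/- library shares the number of WT replicate 4, so the replicate block takes that library out of the genotype contrast. It thus sets C2-/- against WT replicates 1 to 3 only. With the replicate block *Plin1* (2.84) and *Car3* (0.65) were called higher besides the 4, with the same changes as without WT replicate 4. With the block and GC correction together *Plin1* (4.26) and *Plin2* (1.16, adjusted p = 0.00254) were called besides the 4, with *Fabp4* at 0.61, *Lpl* at 0.67 and *Scd1* at 1.22. The values of *Adipoq*, *Plin1* and *Cfd* rested on 1 read or a few in several libraries.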

Other observations

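*Cyp2e1*, a cytochrome P450 that was not on any list and is named after its values were seen, followed the adipocyte markers in WT replicate 3. It had 9, 18, 2 and 15 reads in WT and 2, 13 and 19 in C2-/-, and its value in WT replicate 3 differed from the mean of the other WT libraries by -3.10 on the log2 scale, the 7th lowest of all genes. *Angptl7*, a secreted protein, was 2.86 lower there (8th), with 62, 70, 12 and 47 reads in WT and 27, 9 and 154 in C2-/-. Neither was tested.

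*Fasn*, the fatty acid synthase, and *Mlxipl*, a carbohydrate-responsive transcription factor of lipogenic genes, were not past the threshold in the deposited values but were higher after GC correction (1.84 and 0.98, adjusted p = 0.00924 and 0.00903 in limma's test), with changes of 0.15 and -0.17 under the depth term.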
